A study of Mus musculus with 12 samples.

Results

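The genes that make, sense, move and export cholesterol were followed in type 1 conventional dendritic cells (cDC1), the dendritic cell subset known for presenting captured antigen to CD8 T cells. The 34 genes were taken by name and ordered by step: 7 mevalonate genes, 11 genes of the later sterol steps, 6 regulators and 10 genes of efflux and intracellular handling. A single-symbol probe set measured 31 of them. Acat2, Nr1h2 and Soat1 were not analysed here.

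RNA came from 12 Affymetrix arrays in 4 groups of 3. Mice were naive, of C57BL/6 background, and homozygous in every group for a loxP-flanked allele of Cd40 (CD40fl/fl). The Xcr1++ groups had no Cre, and the Xcr1Cre+ groups carried 1 Xcr1-Cre allele, which is meant to delete Cd40 in cDC1. For each genotype, spleen and skin-draining lymph node (SDLN) cells were sorted as B220-negative, Sirpa-negative, XCR1-positive and MHC II-high. The spleen gate took CD11c-high cells and the SDLN gate took CD11c-intermediate cells, which the labels name migratory. No group carried Xcr1-Cre without the loxP-flanked Cd40, so effects of the Cre allele and of the deletion cannot be told apart. Ages are not given in the sources used here.

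Intensities ran from 8.23 to 20398 on the linear scale, with array medians of 66.1 to 74.4. All 31 measured genes lay above a background of 19.5 intensity units, set by 3 Y-linked genes, in every group. The 4 neutrophil genes and 5 stromal and endothelial genes measured did so too. Lying above this background therefore does not show expression. Across 19938 genes, tissue was the leading principal component (79.5% of the variance), followed by one that parted the arrays numbered 1 (11.2%). Cd40 itself differed between genotype labels by a log2 intensity difference of -0.35 ± 0.40 (SE, n = 3 against 3) in spleen and -0.15 ± 0.40 in SDLN, with exact two-sided permutation p of 0.6 and 0.8, where 0.1 is the smallest p that 3 arrays against 3 allow. Its values overlapped between the labels in both tissues, so the arrays are named below by their label and not as deleted or undeleted. Where the probes of Cd40 lie relative to the deleted part is not known here, so they may check nothing. Of the 10 cDC1 markers, Irf8, Batf3 and Flt3 were expressed in both tissues, and 6 others including Xcr1 and Clec9a were lower in SDLN. Of the 6 migratory markers, 5 including Ccr7 and Fscn1 were higher there, under both labels.

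Cells build cholesterol from acetyl-CoA through mevalonate, the isoprenoids and squalene, and then trim lanosterol to cholesterol. When sterol in the endoplasmic reticulum is low, the escort protein SCAP carries the SREBP transcription factors to the Golgi for cleavage, and INSIG proteins hold SCAP back when sterol is plentiful. SREBP-2 (Srebf2) chiefly drives the cholesterol genes and SREBP-1 (Srebf1) the fatty acid genes. Excess sterol is sensed as oxysterol by the LXR receptors, which induce the exporters ABCA1 and ABCG1.

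Promoter sequences of the synthesis genes were set beside the array values because SREBP is known to act together with the CCAAT-binding factor NF-Y. RefSeq windows of 250 bases before the start (GRCm38.p6, read 5′ to 3′ along the gene) matched 28 of the 34 genes. The motifs searched on both strands were CCAAT, which reads ATTGG where it lies on the other strand, the sterol regulatory element TCACNCCAC, and the LXR-type direct repeat, which is AGGTCA given again after a gap of any 4 bases. The windows shown are those of the 4 synthesis genes with the highest rise on the Xcr1++ arrays among those matched, and of Ebp, the synthesis gene that fell. Capitals mark motif matches, and in these windows no match overlapped another.
Idi1: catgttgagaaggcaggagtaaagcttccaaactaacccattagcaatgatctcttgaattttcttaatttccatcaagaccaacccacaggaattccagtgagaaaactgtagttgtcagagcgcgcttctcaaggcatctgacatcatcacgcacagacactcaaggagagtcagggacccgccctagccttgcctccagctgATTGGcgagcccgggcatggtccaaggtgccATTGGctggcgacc
Sc5d: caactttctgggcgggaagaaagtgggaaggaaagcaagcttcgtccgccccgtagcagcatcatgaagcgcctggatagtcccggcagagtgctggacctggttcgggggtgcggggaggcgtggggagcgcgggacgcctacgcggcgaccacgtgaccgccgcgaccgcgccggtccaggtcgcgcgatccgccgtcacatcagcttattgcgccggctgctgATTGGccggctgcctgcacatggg
Hmgcs1: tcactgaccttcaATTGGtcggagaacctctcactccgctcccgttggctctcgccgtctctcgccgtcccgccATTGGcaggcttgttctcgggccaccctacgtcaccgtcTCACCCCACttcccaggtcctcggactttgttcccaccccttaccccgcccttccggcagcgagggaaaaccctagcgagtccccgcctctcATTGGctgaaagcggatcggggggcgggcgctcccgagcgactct
Mvd: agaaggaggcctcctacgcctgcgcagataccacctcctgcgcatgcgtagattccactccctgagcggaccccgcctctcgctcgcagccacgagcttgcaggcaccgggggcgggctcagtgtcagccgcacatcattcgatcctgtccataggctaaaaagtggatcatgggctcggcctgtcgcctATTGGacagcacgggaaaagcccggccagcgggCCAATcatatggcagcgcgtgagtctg
Ebp: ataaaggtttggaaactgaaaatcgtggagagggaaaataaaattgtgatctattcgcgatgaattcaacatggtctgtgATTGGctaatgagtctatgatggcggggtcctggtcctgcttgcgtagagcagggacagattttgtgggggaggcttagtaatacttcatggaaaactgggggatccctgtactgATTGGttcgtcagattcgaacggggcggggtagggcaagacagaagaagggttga

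These windows lie at chr13:8885356-8885605 (plus strand) for Idi1, chr9:42264301-42264550 (minus strand) for Sc5d, chr13:119690101-119690350 (plus strand) for Hmgcs1, chr8:122443423-122443672 (minus strand) for Mvd and chrX:8193513-8193762 (minus strand) for Ebp. CCAAT on either strand was found in 14 of the 15 synthesis genes with a window, against 37.5% of the 27025 genes with one. It stood in 10 of 10 synthesis genes called higher in SDLN on the Xcr1++ arrays, and also in 4 of 4 that were lower or not called, so its presence did not separate them. Among the other members it stood in 4 of 5 regulators and 3 of 8 efflux and handling genes. The sterol regulatory element was matched in 1 member, Hmgcs1, 137 to 129 bases before the start, and in 1.22% of all genes. The direct repeat was matched in 0 of 28 members and in 0.0148% of all genes. A match or its lack describes these letters in this window and nothing about binding.

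SDLN cDC1 had higher RNA for most of the synthesis pathway than spleen cDC1. On the Xcr1++ arrays 13 of the 17 measured synthesis genes were higher in SDLN, 1 was lower and 3 did not pass the test, and on the Xcr1Cre+ arrays 10 were higher, 1 was lower and 6 did not pass. Over all 31 members, 16 rose, 4 fell and 11 did not pass on the Xcr1++ arrays, where 26.1% of all genes were called (12.9% higher and 13.2% lower). On the Xcr1Cre+ arrays 13 rose, 5 fell and 13 did not pass, where 28.3% of all genes were called (13.1% higher and 15.2% lower). The median log2 intensity difference of the members was 0.52 and 0.35 under the 2 labels, against 0.03 and 0.07 for all genes tested. The members were chosen with earlier results of these data known, so the contrast with all genes is description and not independent support. The threshold for a call was 0.05 on limma's two-sided p after Benjamini-Hochberg adjustment across the 19938 genes, and every adjusted p below is from that fit. Without all arrays numbered 3, which leaves 8 of the 12, 8 members in place of 16 were called higher on the Xcr1++ arrays. The labels do not say that replicates came from separate animals, so these p-values measure the spread between arrays, which may be technical. In RNA from sorted populations, fewer cells of a type and less RNA per cell cannot be told apart.

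Some markers of other cells also differed between the tissues, where 26.1% (Xcr1++) and 28.3% (Xcr1Cre+) of all genes were called. Of 4 measured T cell genes, 3 rose and 1 fell under both labels: Cd3g rose 3.41-fold and 2.93-fold, Cd3d 2.43-fold and 2.26-fold and Cd3e 1.53-fold and 1.70-fold, and Cd5 was 1.88-fold and 1.60-fold lower. Their summed intensity was 552 to 672 on the spleen arrays and 531 to 1309 on the SDLN arrays. On the Xcr1Cre+ arrays Cd3d and Cd3g overlapped between the tissues, and array 1 was the highest of each SDLN group for both. Of 4 Langerhans cell and keratinocyte genes, Epcam (2.06-fold and 2.41-fold) and Krt14 (1.48-fold and 1.70-fold) rose, Cd207 fell and Krt5 did not pass, with sums of 350 to 646 in spleen and 282 to 389 in SDLN. Their part in the rises was not tested.

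The same 13 members were called higher under both labels and the same 4 were called lower under both, 3 were called in Xcr1++ only, 1 in Xcr1Cre+ only and 10 in neither. None was called in opposite directions. The spleen and SDLN arrays did not overlap, with SDLN higher, for 17 members on the Xcr1++ arrays and 14 on the Xcr1Cre+ arrays (19.0% and 22.4% of all genes), and with SDLN lower for 5 and 5 (17.3% and 18.7%). The group means in the 2 tissue comparisons rest on different arrays, but the fit took each gene's spread from all arrays together. Arrays that share a number also tended to deviate alike from their group means. Agreement under both labels is therefore not independent replication.

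**Figure D1:**
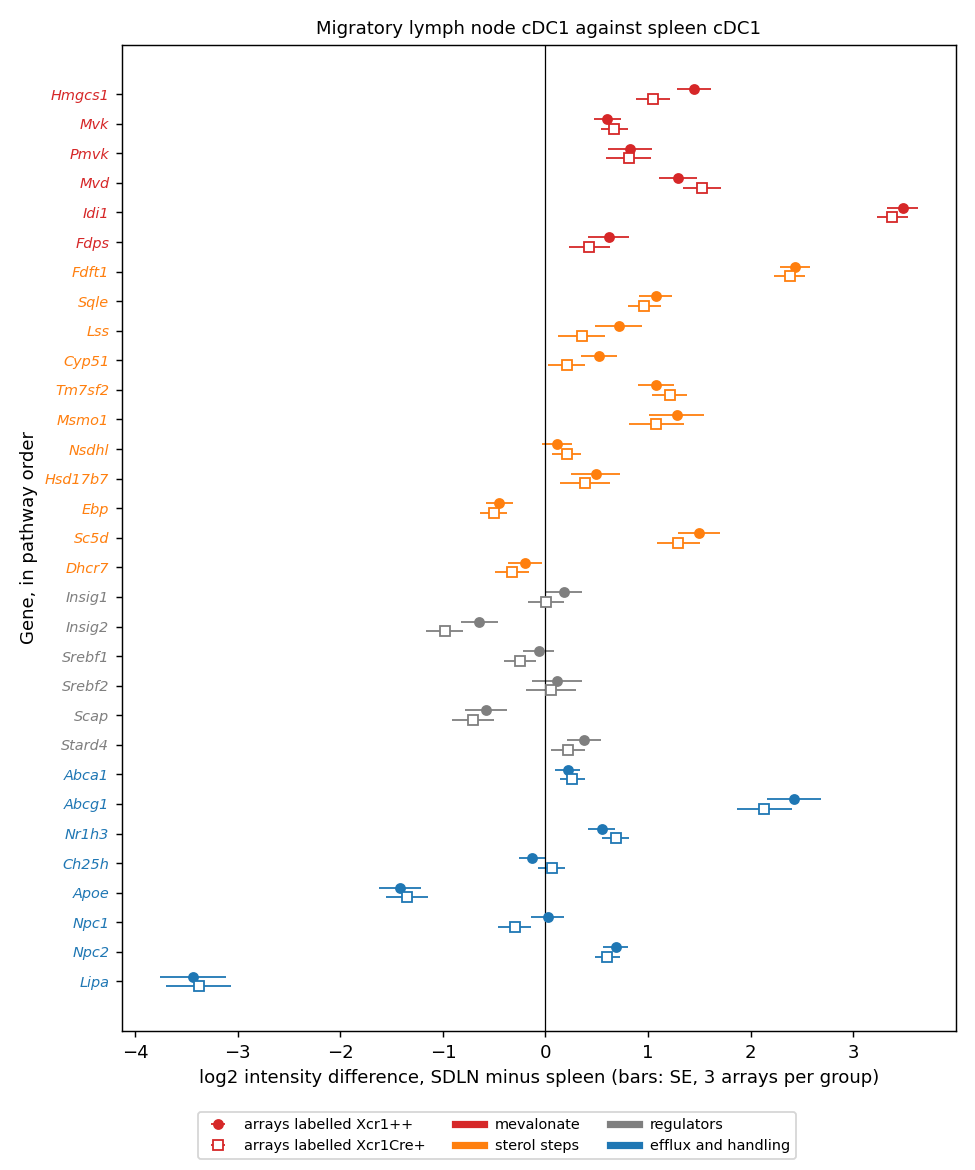
Log2 intensity difference (SDLN minus spleen, horizontal axis) of the 31 measured genes in pathway order (vertical axis), as filled circles for arrays labelled Xcr1++ and open squares for arrays labelled Xcr1Cre+, with bars of 1 SE and 3 arrays per group. Idi1 and Fdft1 lie farthest right among the synthesis genes at 3.48 and 2.43 (Xcr1++), and Lipa lies farthest left at -3.44.

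All 6 measured mevalonate genes rose in SDLN on the Xcr1++ arrays and 5 of the 6 on the Xcr1Cre+ arrays. Their median log2 differences were 1.06 and 0.93, and 12.9% and 13.1% of all genes rose. Hmgcs1 makes HMG-CoA, the substrate from which mevalonate is formed. Its intensity was 186, 192 and 232 in spleen and 449, 562 and 677 in SDLN on Xcr1++ arrays 1, 2 and 3, and 259, 228 and 254 against 533, 469.9 and 532 on the Xcr1Cre+ arrays. Every SDLN array was above every spleen array, and Hmgcs1 rose 2.74-fold (log2 difference 1.45 ± 0.17, SE, adjusted p = 1.29e-05) and 2.07-fold (adjusted p = 0.000228).

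The kinases Mvk and Pmvk add phosphate to mevalonate in turn. Mvk read 153, 140.3 and 147 in spleen and 254, 191 and 229.6 in SDLN on the Xcr1++ arrays, and 147, 131 and 139 against 233, 208 and 224 on the Xcr1Cre+ arrays. Pmvk read 501, 427 and 402 against 946, 635 and 799.6, and 548, 433 and 400.2 against 1089, 638 and 738. Neither gene's tissues overlapped under either label. Mvk rose 1.52-fold and 1.59-fold (adjusted p = 0.00293 and 0.00132), and Pmvk 1.77-fold and 1.75-fold (adjusted p = 0.0101 and 0.0109). Without spleen Xcr1Cre+ array 3 the Xcr1Cre+ difference of Pmvk was 0.72 on the log2 scale with adjusted p = 0.0548.

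Mvd, the decarboxylase that makes isopentenyl diphosphate, read 212, 202 and 239 in spleen and 449, 480.0 and 700.3 in SDLN on the Xcr1++ arrays. On the Xcr1Cre+ arrays it read 164, 201 and 223 against 505, 547 and 629.5. Its tissues stood apart under both labels, at 2.45-fold and 2.87-fold higher in SDLN (log2 difference 1.29 ± 0.19 and 1.52 ± 0.19, SE).

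Idi1, the isomerase that supplies dimethylallyl diphosphate, was the most changed synthesis gene. Its probe set read 50.0, 37.2 and 42.7 in spleen and 415, 496 and 539 in SDLN on the Xcr1++ arrays, and 36.3, 37.9 and 46.0 against 441, 406 and 403 on the Xcr1Cre+ arrays. The lowest SDLN value was well above the highest spleen value. The rise was 11.2-fold (log2 difference 3.48 ± 0.15, SE, adjusted p = 2.36e-09) and 10.4-fold (3.38, adjusted p = 2.79e-09). A dimmer probe set with the same annotation gave log2 differences of 3.46 and 3.32, and the promoter with its 2 ATTGG matches is the first printed above.

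Fdps, which makes farnesyl diphosphate, read 838, 668 and 682 in spleen and 1413, 862 and 1131 in SDLN on the Xcr1++ arrays. On the Xcr1Cre+ arrays it read 908, 695 and 652 against 1121, 881 and 1016, and there the tissues overlapped. The Xcr1++ rise was 1.53-fold (adjusted p = 0.0331). The Xcr1Cre+ ratio was 1.35 (adjusted p = 0.132), which became 0.00517 with the replicate number as a block. The Xcr1++ call was lost without spleen Xcr1++ array 2 or 3 or SDLN Xcr1++ array 1 or 3, with log2 differences of 0.45 to 0.61 and adjusted p of 0.0861 to 0.133.

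The first sterol steps turn farnesyl diphosphate into squalene, its epoxide and lanosterol. Of the 11 genes from squalene to cholesterol, 7 rose, 1 fell and 3 did not pass on the Xcr1++ arrays (median log2 difference 0.71). On the Xcr1Cre+ arrays 5 rose, 1 fell and 5 did not pass (median 0.38). The shares of all genes were 12.9% higher and 13.2% lower, and 13.1% and 15.2%. Fdft1, squalene synthase, read 561, 470.1 and 581 in spleen and 2917, 2587 and 3205 in SDLN on the Xcr1++ arrays, and 577, 588 and 558 against 2728, 2844 and 3459 on the Xcr1Cre+ arrays. It stood far apart between the tissues and rose 5.40-fold and 5.21-fold (log2 difference 2.43 and 2.38 ± 0.15, SE, adjusted p = 3.78e-08 and 4.59e-08). Its dimmer probe set gave 2.60 and 2.48.

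Sqle, the squalene epoxidase, read 254, 195 and 244 in spleen and 441, 457 and 558 in SDLN on the Xcr1++ arrays, and 275, 222 and 211 against 448, 437 and 489 on the Xcr1Cre+ arrays. It was higher on every SDLN array and rose 2.11-fold and 1.95-fold (adjusted p = 0.000149 and 0.000366). Lss, the cyclase that makes lanosterol, was dim and overlapped between tissues, at 51.5, 57.3 and 73.4 against 65.5, 108 and 135 on the Xcr1++ arrays and 51.7, 65.2 and 66.5 against 64.3, 92.8 and 78.3 on the Xcr1Cre+ arrays. It rose 1.64-fold on the Xcr1++ arrays (adjusted p = 0.0332), and the Xcr1Cre+ ratio was 1.28 (adjusted p = 0.292). The call was lost without spleen Xcr1++ array 1 or 2 or SDLN Xcr1++ array 2 or 3 (adjusted p of 0.0971 to 0.159).

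Cyp51 removes a methyl group from lanosterol. It read 199.9, 218 and 214 in spleen and 240.1, 271 and 425 in SDLN on the Xcr1++ arrays, and 228, 229 and 230.1 against 256, 260.1 and 279 on the Xcr1Cre+ arrays. All SDLN values lay above all spleen values, but 1 of them, SDLN Xcr1++ array 3, lay far above the rest. The Xcr1++ rise of 1.44-fold (adjusted p = 0.0452) was lost in 10 of 12 fits that left out 1 array, all but those without SDLN array 1 of either label, with adjusted p of 0.052 to 0.188. Without SDLN Xcr1++ array 3 the log2 difference fell from 0.52 to 0.28. The Xcr1Cre+ ratio was 1.16 (adjusted p = 0.433).

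Tm7sf2, a sterol reductase, read 61.3, 70.8 and 65.8 in spleen and 169, 101 and 158 in SDLN on the Xcr1++ arrays, and 60.5, 59.3 and 60.9 against 163, 135 and 123 on the Xcr1Cre+ arrays. It rose 2.11-fold and 2.31-fold, and with array weights the Xcr1++ log2 difference was 0.63 in place of 1.08. Msmo1, which oxidises the methyl groups of the sterol ring, read 599, 342 and 441 against 1163, 1052 and 1056 on the Xcr1++ arrays, and 875, 393 and 437 against 1200.2, 1016 and 1168 on the Xcr1Cre+ arrays. In spleen its array 1 was the highest under both labels, yet below every SDLN array, and it rose 2.43-fold and 2.12-fold (adjusted p = 0.00224 and 0.00707).

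Sc5d, a desaturase of the last steps, read 355, 235 and 245 in spleen and 798, 752 and 767 in SDLN on the Xcr1++ arrays, and 443, 313 and 276 against 758, 758 and 989 on the Xcr1Cre+ arrays. It rose 2.83-fold and 2.46-fold with no overlap (adjusted p = 7.12e-05 and 0.000242). Ebp, the sterol isomerase one step earlier, went the other way. It read 825, 842 and 895 in spleen and 600.4, 604 and 675 in SDLN on the Xcr1++ arrays, and 786, 861 and 848 against 552, 574 and 634 on the Xcr1Cre+ arrays. It was 1.36-fold lower (log2 difference -0.45 ± 0.13, SE, adjusted p = 0.0201) and 1.42-fold lower (-0.51, adjusted p = 0.0093) in SDLN, again with no overlap. The Xcr1++ call was lost without spleen Xcr1++ array 2 or 3 or SDLN Xcr1++ array 2 (adjusted p of 0.0564 to 0.0815).

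The other 3 sterol genes did not pass the test under either label. Nsdhl, a sterol dehydrogenase, had log2 differences of 0.11 and 0.21, and Hsd17b7, a sterol ketone reductase, of 0.49 and 0.38. Dhcr7, the last reductase, had -0.20 and -0.33. With the replicate number as a block Hsd17b7 passed under both labels (adjusted p = 0.00612 and 0.0234) and Dhcr7 on the Xcr1Cre+ arrays (0.0449).

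**Figure D2:**
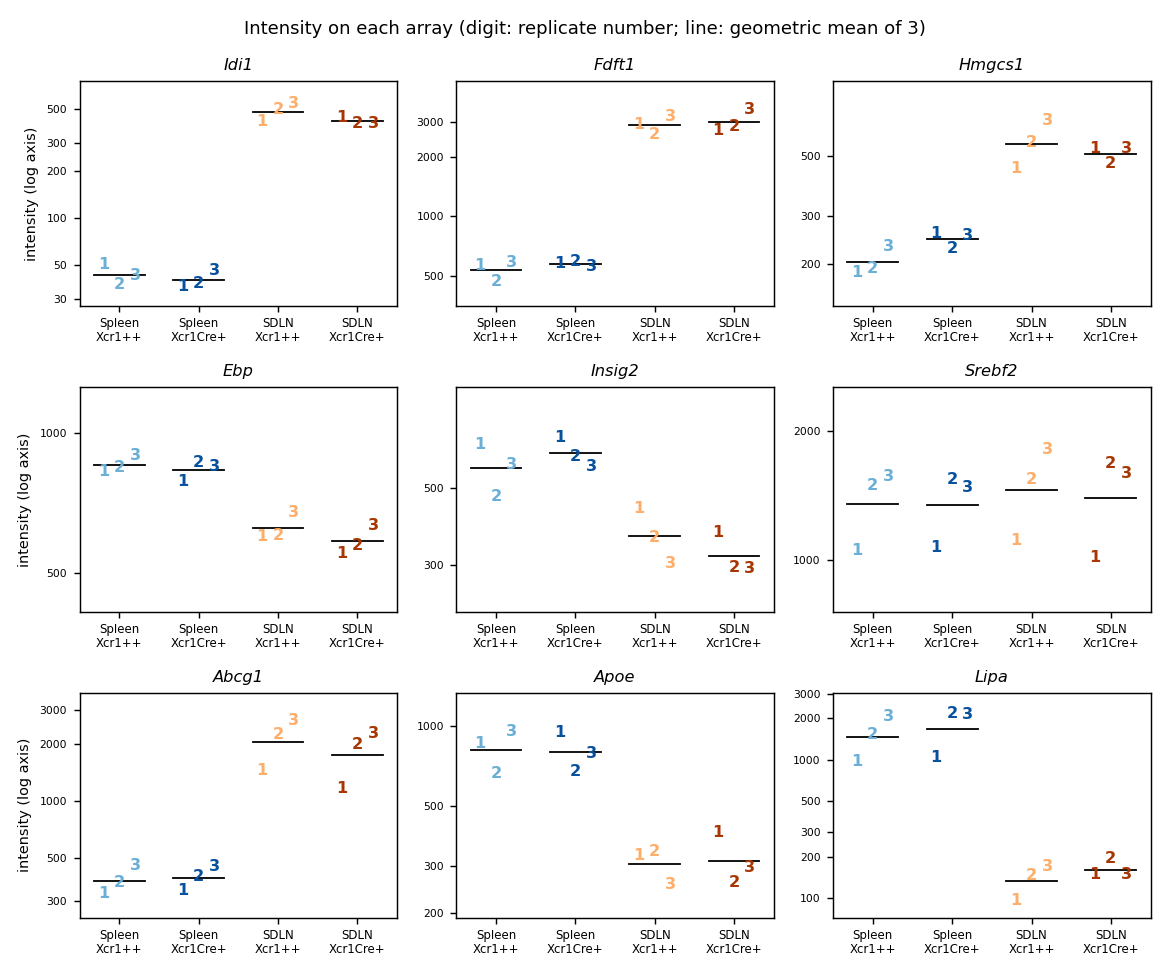
Intensity of 9 genes (vertical log axis) on each of the 12 arrays, drawn as the replicate number over the 4 groups (horizontal axis), with a line at the geometric mean of 3 arrays. Idi1, Fdft1, Hmgcs1 and Abcg1 lie higher on all SDLN arrays, Ebp, Insig2, Apoe and Lipa lie lower on all of them, and Srebf2 is lowest on the arrays numbered 1 in all 4 groups.

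None of the 6 regulators was called higher in SDLN, where 12.9% (Xcr1++) and 13.1% (Xcr1Cre+) of all genes were. Under these labels 1 and 2 were called lower, against 13.2% and 15.2% of all genes. Such small counts do not set the regulators apart from all genes. Insig2, which retains SCAP in the endoplasmic reticulum, fell under both labels, and Scap was lower under both but was called on the Xcr1Cre+ arrays only. Insig2 read 667, 475 and 586 in spleen and 439, 362 and 305 in SDLN on the Xcr1++ arrays, and 700.1, 619 and 579.9 against 374, 297 and 294 on the Xcr1Cre+ arrays. The tissues did not overlap, at 1.57-fold lower (log2 difference -0.65 ± 0.18, SE, adjusted p = 0.0154) and 1.97-fold lower (-0.98, adjusted p = 0.00083). The Xcr1++ call was lost without spleen Xcr1++ array 1 or 3 or SDLN Xcr1++ array 3 (adjusted p of 0.0529 to 0.0788).

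Scap read 643, 882 and 903 in spleen and 460.1, 559 and 600.0 in SDLN on the Xcr1++ arrays, and 695, 924 and 898 against 411, 649 and 497 on the Xcr1Cre+ arrays. Array 1 was the lowest in every group, and the tissues did not overlap. The Xcr1++ log2 difference was -0.58 (adjusted p = 0.0523, and 0.000559 with the replicate number as a block), and it passed without spleen array 1 of either label or SDLN Xcr1Cre+ array 1 or 2 (adjusted p of 0.0223 to 0.0455). The Xcr1Cre+ log2 difference was -0.71 (adjusted p = 0.0175) and was lost without spleen Xcr1Cre+ array 2 or 3 or SDLN Xcr1Cre+ array 1 or 3 (adjusted p of 0.0533 to 0.075).

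The transcription factor genes themselves gave no call. Srebf2 read 1052, 1490.2 and 1563 in spleen and 1109, 1543 and 1804 in SDLN on the Xcr1++ arrays, and 1069, 1536 and 1473 against 1013, 1678 and 1589 on the Xcr1Cre+ arrays. Array 1 was the lowest in every group and the tissues overlapped, and its tissue differences were 0.11 and 0.05 on the log2 scale, with 95% intervals of -0.41 to 0.64 and -0.47 to 0.58. Srebf1 read 222, 250.2 and 275 against 224, 239 and 249, and 209, 266 and 237 against 168, 234 and 201. Its differences were -0.07 (95% interval -0.40 to 0.27) and -0.25 (-0.58 to 0.09). These intervals come from the fit without the replicate number as a block. Within the 6 pairs of arrays that share a number and a label, the differences ran from -0.08 to 0.21 for Srebf2. For Srebf1 they ran from -0.31 to 0.01. Neither the intervals nor the pairs show that either gene was the same in both tissues.

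Insig1, which SREBP also induces, read 295, 323 and 384 in spleen and 299, 374 and 475 in SDLN on the Xcr1++ arrays, and 367, 368 and 403 against 399, 349 and 398 on the Xcr1Cre+ arrays. The tissues overlapped, with log2 differences of 0.18 and 0.01 (adjusted p = 0.57 and 0.977). Stard4, a sterol carrier protein, read 203, 179 and 180.2 against 247, 214 and 268, and 200.1, 195 and 202 against 254, 178 and 279. Its log2 differences were 0.37 (adjusted p = 0.129, and 0.032 with the replicate number as a block) and 0.22 (adjusted p = 0.356).

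Of the 8 measured efflux and handling genes, 3 rose, 2 fell and 3 did not pass, the same genes under both labels. Among all genes 12.9% were called higher and 13.2% lower on the Xcr1++ arrays, and 13.1% and 15.2% on the Xcr1Cre+ arrays. Abcg1, which exports cholesterol to lipoproteins, read 326, 376 and 458 in spleen and 1454, 2242 and 2646 in SDLN on the Xcr1++ arrays, and 341, 400.2 and 456 against 1169.7, 1984 and 2276 on the Xcr1Cre+ arrays. Array 1 was the lowest in each group, and the tissues stood far apart. The rise was 5.36-fold (log2 difference 2.42 ± 0.26, SE, adjusted p = 8.62e-06) and 4.39-fold (2.14, adjusted p = 2.63e-05).

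Abca1, the other LXR-induced exporter, was dim at 39.9 to 64.1 over the 12 arrays and gave log2 differences of 0.22 and 0.26 (adjusted p = 0.259 and 0.14, the second 0.0499 with the replicate number as a block). Nr1h3, which encodes LXR alpha, read 77.4, 70.8 and 57.6 in spleen and 117, 93.5 and 90.7 in SDLN on the Xcr1++ arrays, and 53.9, 57.5 and 61.7 against 97.6, 90.5 and 90.0 on the Xcr1Cre+ arrays. It rose 1.46-fold and 1.61-fold without overlap (adjusted p = 0.00544 and 0.00106). Ch25h, which makes an oxysterol, was dim throughout at 27.6 to 44.0, with log2 differences of -0.13 and 0.06.

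Npc2 and Npc1 pass cholesterol out of the lysosome. Npc2 read 2861, 2396 and 2715 in spleen and 4237, 4209 and 4330.3 in SDLN on the Xcr1++ arrays, and 3247, 2679 and 2649.8 against 4453, 4249.9 and 4276 on the Xcr1Cre+ arrays. It rose 1.61-fold and 1.52-fold with no overlap (adjusted p = 0.000627 and 0.00163). Npc1 did not pass, with log2 differences of 0.02 and -0.30 and intensities of 288 to 493 over the 12 arrays. Levels of different genes come from different probes and are not compared as amounts of RNA.

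Lipa and Apoe fell. Lipa, the lysosomal acid lipase that frees cholesterol from its esters, read 969, 1528 and 2065 in spleen and 96.5, 147 and 169 in SDLN on the Xcr1++ arrays, and 1032, 2176 and 2111 against 147, 192 and 147 on the Xcr1Cre+ arrays. The tissues stood far apart, and the gene was 10.8-fold lower (log2 difference -3.44 ± 0.32, SE, adjusted p = 2e-06) and 10.4-fold lower (-3.38, adjusted p = 2.24e-06) in SDLN. Apoe, an acceptor of exported cholesterol, read 861, 662 and 947 against 328, 338 and 256, and 943, 673 and 789 against 398, 259 and 294. It was 2.67-fold and 2.55-fold lower in SDLN (adjusted p = 0.000113 and 0.000168).

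Macrophages are rich in both transcripts, and some macrophage markers were lower in SDLN too. Of 14 measured macrophage genes, 3 fell, 1 rose and 10 did not pass on the Xcr1++ arrays, and 4 fell, 1 rose and 9 did not pass on the Xcr1Cre+ arrays, where 13.2% and 15.2% of all genes fell, and the list's median log2 differences were -0.20 and -0.08. The summed intensity of 14 measured macrophage genes was 4212 to 5789 on the spleen arrays and 1557 to 1722 on the SDLN arrays. Cd68, Cd14 and Lyz2 fell under both labels. Adgre1 (29.5 to 48.4), Mertk (28.6 to 40.9) and C1qa (54.8 to 75.2) were low on all 12 arrays and, like C1qb, C1qc, Fcgr1 and Marco, were not called under either label, and Vcam1 rose. None of the 14 lay at the Y-linked background. Of 5 measured B cell genes only Ms4a1 was called, 4.60-fold and 5.79-fold lower. Of 5 stromal and endothelial genes only Pecam1 was called, 6.38-fold and 9.06-fold lower. The part of these markers in the falls of Lipa and Apoe was not tested.

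The genes around the pathway were counted by list. Of the list used here as fatty acid targets of SREBP-1, 7 of 8 fell under both labels, where 13.2% and 15.2% of all genes fell. The 7 include Lpcat3, which was 2.61-fold and 2.63-fold lower. Whether each gene of the list answers to SREBP-1 in these cells was not tested. The list's median log2 differences were -1.21 and -1.28, and the exception was the desaturase gene Fads2 (0.41 and 0.11). Fads2 did not pass (adjusted p = 0.0755 on the Xcr1++ arrays, 0.0387 with the replicate number as a block and 0.026 without SDLN Xcr1Cre+ array 3). Leaving out 1 array at a time gave 5 to 7 of the list called lower on the Xcr1++ arrays and 6 to 7 on the Xcr1Cre+ arrays. Scd2, a second stearoyl-CoA desaturase gene, lost its call without spleen array 2 or 3 or SDLN array 1 of the label tested (adjusted p of 0.0712 to 0.0803 for Xcr1++ and 0.0568 to 0.0681 for Xcr1Cre+). The desaturase gene Fads1 lost its Xcr1++ call without spleen Xcr1++ array 3 or SDLN Xcr1++ array 1 or 2 (adjusted p of 0.0558 to 0.138). Fasn, fatty acid synthase, read 726, 977 and 996 in spleen and 246, 233 and 265 in SDLN on the Xcr1++ arrays, and 735, 1015 and 1046 against 232, 264 and 260.1 on the Xcr1Cre+ arrays. The tissues did not overlap, and it was 3.60-fold and 3.65-fold lower in SDLN. The elongase Elovl6 was 3.05-fold and 4.50-fold lower, the desaturase Scd1 3.08-fold and 2.86-fold, and Acaca, acetyl-CoA carboxylase, 1.93-fold and 2.23-fold (all 6 adjusted p at or below 0.000579). CCAAT stood in the promoter windows of 2 of the 5 matched genes of this list.

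Of 8 measured uptake genes, 1 rose and 3 fell on the Xcr1++ arrays and 2 rose and 3 fell on the Xcr1Cre+ arrays. Of all genes, 12.9% rose and 13.2% fell on the Xcr1++ arrays, and 13.1% and 15.2% on the Xcr1Cre+ arrays. The scavenger receptor gene Cd36 read 1594, 1669.7 and 2056 in spleen and 81.6, 102 and 93.0 in SDLN on the Xcr1++ arrays, and 1533, 2024 and 1972 against 104, 83.7 and 77.1 on the Xcr1Cre+ arrays, a fall of 19.2-fold and 20.9-fold. Scarb1, the receptor for high-density lipoprotein, read 1261, 1439 and 1446 against 149, 154 and 132, and 1410.5, 1555 and 1489.9 against 182, 171 and 144. Both receptors were well separated between tissues, Scarb1 at 9.51-fold and 9.02-fold lower. Cd36 is abundant in spleen macrophages, which the sort on XCR1, MHC II and absence of Sirpa is meant to remove, and the part of the macrophage markers given above in its fall was not tested. The lipoprotein receptor gene Lrp8 rose 1.84-fold and 1.89-fold. The dim Olr1 fell 1.30-fold and 1.29-fold, and its Xcr1Cre+ call was lost without spleen Xcr1Cre+ array 2 (adjusted p = 0.0649).

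Of 10 other synthesis and prenylation genes, 1 rose and 3 fell on the Xcr1++ arrays and 1 rose and 4 fell on the Xcr1Cre+ arrays. Of all genes, 26.1% and 28.3% were called in either direction. Coq2, of ubiquinone synthesis, was 3.21-fold and 3.19-fold lower in SDLN. Lbr, a nuclear envelope protein with the same reductase activity as Tm7sf2, was 2.86-fold and 3.76-fold lower, so the 2 reductase genes moved in opposite directions. Lbr read 121, 167 and 209 in spleen and 57.5, 59.9 and 52.4 in SDLN on the Xcr1++ arrays, and 108, 213 and 232 against 42.7, 56.8 and 41.4 on the Xcr1Cre+ arrays. Acat1, a mitochondrial thiolase, was 2.26-fold and 2.45-fold lower. Pgrmc1, a haem-binding partner of Cyp51, rose 1.64-fold and 1.49-fold, and the second call was lost without spleen Xcr1Cre+ array 2 or 3 or SDLN Xcr1Cre+ array 1 or 3 (adjusted p of 0.052 to 0.0994).

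Of 8 other regulators, 1 rose and 1 fell on the Xcr1++ arrays, and 1 rose and 2 fell on the Xcr1Cre+ arrays. These counts are near the shares of all genes called in either direction, 26.1% and 28.3%. Aup1, which takes part in protein degradation at the endoplasmic reticulum, rose 1.78-fold and 1.68-fold, and Erlin1, an endoplasmic reticulum protein that restrains SREBP, was 2.44-fold and 2.83-fold lower. Of 11 other transport and esterification genes, 4 rose and 2 fell on the Xcr1++ arrays, and 3 rose and 4 fell on the Xcr1Cre+ arrays. The shares of all genes are those just given. Gramd1b, which moves cholesterol from the plasma membrane to the endoplasmic reticulum, read 354, 280.2 and 348 in spleen and 1643, 1984 and 2064 in SDLN on the Xcr1++ arrays, and 347, 323 and 333 against 1489, 2110.1 and 2079.7 on the Xcr1Cre+ arrays. It was far higher on every SDLN array, at 5.79-fold and 5.59-fold. Its relative Gramd1a rose 2.59-fold and 2.32-fold, and the second call was lost without spleen Xcr1Cre+ array 1 or SDLN Xcr1Cre+ array 2 or 3 (adjusted p of 0.0559 to 0.0643). Gpr183, the receptor for an oxysterol derived from the product of Ch25h, was 3.34-fold and 4.02-fold lower, and the lysosomal Scarb2 2.1-fold and 2.0-fold lower.

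**Figure D3:**
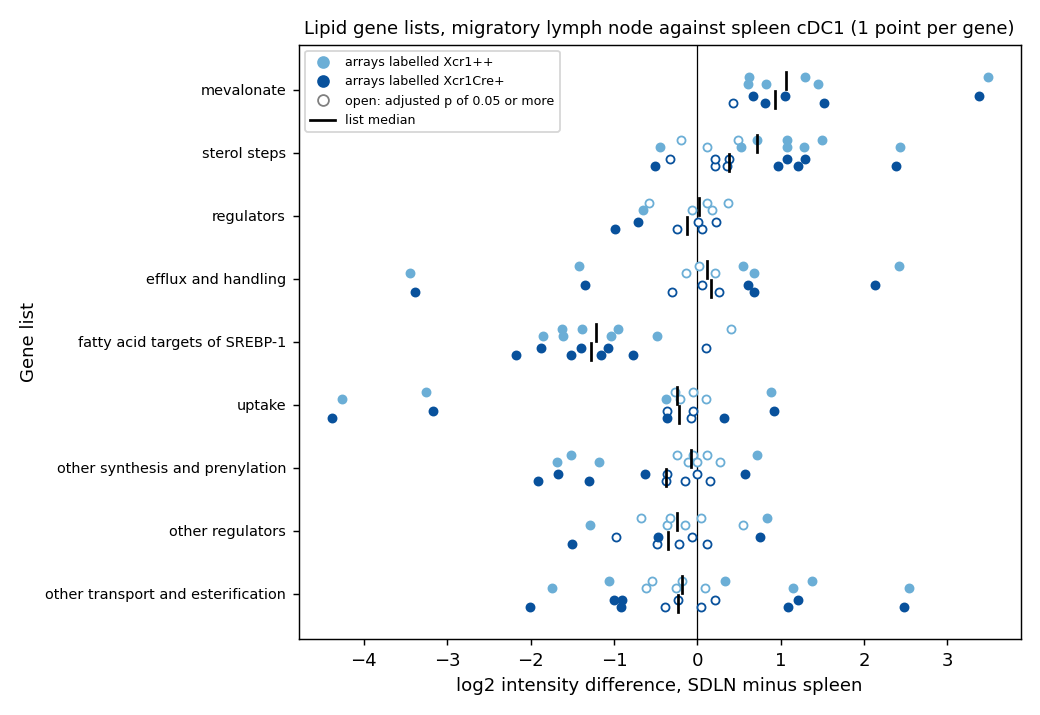
Log2 intensity difference (SDLN minus spleen, horizontal axis) of each gene in 9 lists (vertical axis), in light blue for arrays labelled Xcr1++ and dark blue for arrays labelled Xcr1Cre+, with open points where the adjusted p is 0.05 or more and a line at each list's median. The mevalonate genes lie right of 0, and 7 of the 8 fatty acid targets lie left of it.

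The synthesis genes followed the array number in some groups and not in others. On the arrays numbered 2, 14 of 17 synthesis genes lay below their group mean in spleen Xcr1++, SDLN Xcr1++ and SDLN Xcr1Cre+, and 9 of 17 in spleen Xcr1Cre+. On the arrays numbered 3, 14 and 13 of 17 lay above it in SDLN Xcr1++ and SDLN Xcr1Cre+, but 10 and 9 in spleen Xcr1++ and spleen Xcr1Cre+. On the arrays numbered 1, 8 to 10 of 17 lay above it. The share of all genes that deviated in these ways was not counted. The median deviation of the 17 genes stayed within -0.10 and 0.15 log2 units on every array. Within each of the 6 pairs of spleen and SDLN arrays that share a number and a label, SDLN was higher in 6 of 6 for Hmgcs1, Mvk, Pmvk, Mvd, Idi1, Fdps, Fdft1, Sqle, Lss, Cyp51, Tm7sf2, Msmo1, Hsd17b7 and Sc5d. It was lower in 6 of 6 for Ebp and Dhcr7. The share of all genes with 6 of 6 was not counted, so these counts do not set the synthesis genes apart. Hsd17b7 and Dhcr7 did not pass the reported test under either label. The smallest of the 6 differences was 3.05 for Idi1 and 2.24 for Fdft1, but 0.17 for Cyp51 and 0.24 for Lss on the log2 scale.

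The study was designed to compare cDC1 with and without CD40. Between the genotype labels 0 of 31 members were called in spleen, in SDLN or in the difference of the tissue effects, by limma with adjustment over all genes, and 0% of all genes were called in each. At an unadjusted p under 0.05 the members again numbered 0 in each, against 357, 402 and 326 of all genes. With array weights 51, 2 and 3 genes were called, none of them members, and 4, 4 and 5 members had an unadjusted p under 0.05. With the replicate number as a block 1, 3 and 1 members did, and 0 were called.

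Member differences (Xcr1Cre+ minus Xcr1++) ran from -0.24 to 0.30 on the log2 scale in spleen, with a median of 0.04, and from -0.34 to 0.27 in SDLN, with a median of -0.06. In spleen Nr1h3 had the smallest unadjusted p (log2 difference -0.24, 95% interval -0.52 to 0.04), followed by Hmgcs1 (0.28, -0.07 to 0.64). In SDLN it was Nsdhl (0.24, -0.06 to 0.55), followed by Srebf1 (-0.25, -0.58 to 0.08). Idi1 differed by -0.11 in spleen (-0.43 to 0.21) and -0.21 in SDLN (-0.53 to 0.11). Abcg1 differed by 0.05 (-0.52 to 0.62) and -0.24 (-0.80 to 0.33), and Lipa, the widest, by 0.21 (-0.48 to 0.90) and 0.27 (-0.42 to 0.96). These intervals, and those of the next paragraph, come from the fit without the replicate number as a block. They leave room for differences of the size of several of the smaller tissue differences, so they do not show that the labels were alike. The genotype values did not overlap for 3 members in spleen (Cyp51 and Npc1 higher and Tm7sf2 lower on the Xcr1Cre+ arrays) and for 1 in SDLN (Nsdhl higher). Over all genes the shares were 2.68% higher and 4.96% lower in spleen, and 2.01% and 2.71% in SDLN, so these counts are near the background.

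The tissue effect was smaller on the Xcr1Cre+ arrays, or more negative, for 22 of 31 members, with a median difference of -0.10 and a range of -0.40 to 0.23 on the log2 scale. Over all genes it was so for 10043 of 19938, with a median of -0.0016. Hmgcs1 had the smallest p (-0.40, 95% interval -0.91 to 0.10, unadjusted p = 0.108, adjusted p = 1). The 4 members called under 1 label only are not shown to differ between labels: the 95% interval of the difference was -0.79 to 0.42 for Fdps, -1.06 to 0.34 for Lss, -0.86 to 0.23 for Cyp51 and -0.75 to 0.49 for Scap.

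**Figure D4:**
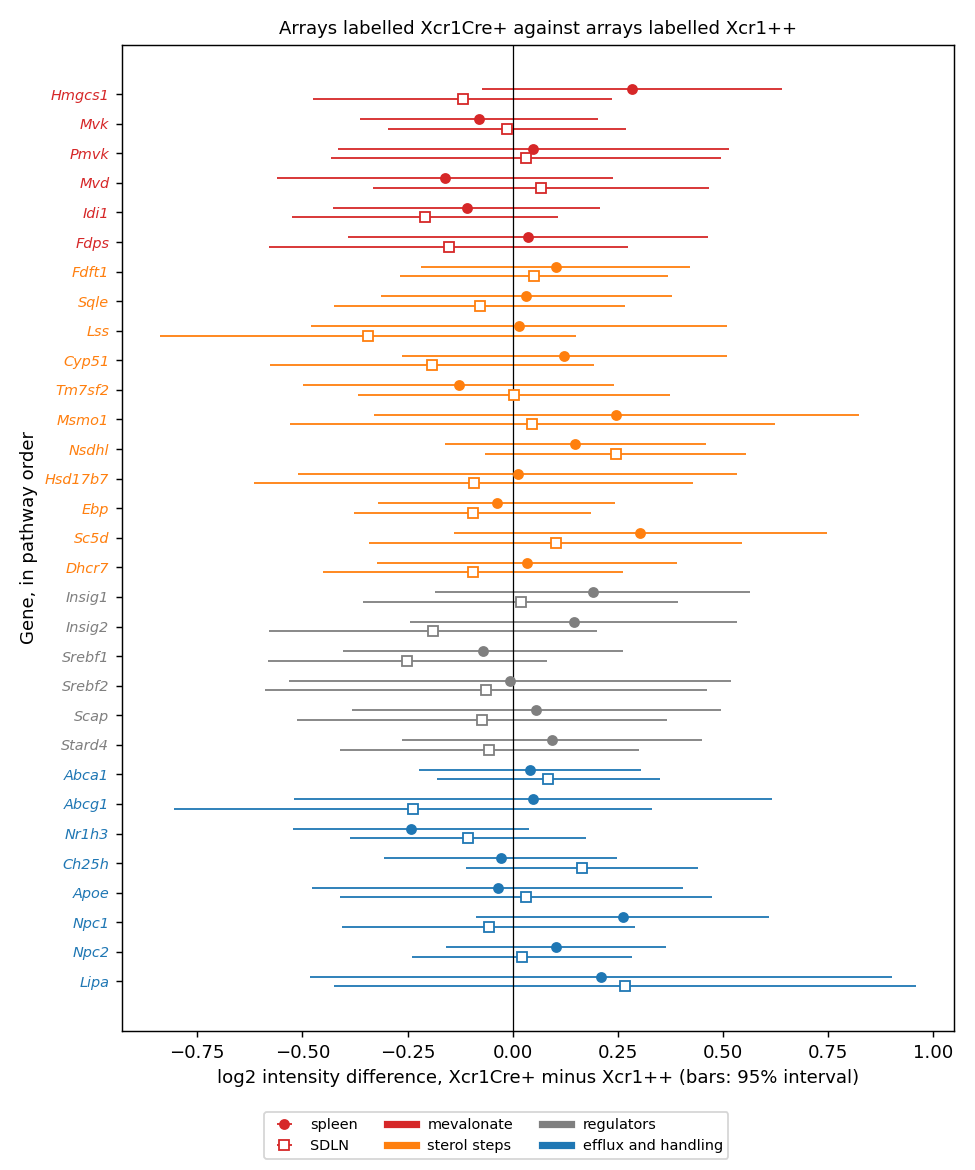
Log2 intensity difference (Xcr1Cre+ minus Xcr1++, horizontal axis) of the 31 measured genes in pathway order (vertical axis), as filled circles for spleen and open squares for SDLN, with bars of the 95% interval. Every interval, from the fit without the replicate number as a block, includes 0, and the differences lie between -0.34 and 0.30.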

How the data were processed

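RNA of sorted cDC1 was hybridised to Affymetrix Mouse Gene 1.0 ST arrays after labelling with the WT Pico kit, made for minute RNA inputs, as the labels' protocols state. Per the submitters' processing notes, the authors obtained the deposited intensities from Affymetrix Expression Console by RMA, and tool versions are not given in the sources used here. The deposited intensity values were read as linear because they reached 20398, and log2 of the deposited values was taken before any test. Of 28853 probe sets, 23410 were named by the annotation used (21789 by a single symbol and 1621 by several, the latter not tested), and 5443 were unlisted. The brightest probe set stood for a gene where there were several (999 genes, among them Idi1 and Fdft1).

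Limma 3.58.1 in R 4.3.3 (data.table version 1.17.8) fitted 4 group means over the 12 arrays, with an eBayes trend and Benjamini-Hochberg adjustment over 19938 genes within each comparison, and a call at 0.05. The fit was tested on simulated data, where it called 82% of 200 genes changed by 1 log2 unit between tissues, and 8 unchanged genes. The simulated noise was independent on each array, so this did not test the fit with arrays paired by number. Precision is limited by how few arrays there are. The members, the other lists and the markers were chosen with earlier results of these data known. Each member called in a comparison, and each regulator, was described with its value on every array, and up to 4 genes of each other list were named by their p in the Xcr1++ tissue comparison.

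Arrays carry the numbers 1 to 3 in every group. Deviations from group means correlated across genes at 0.573 to 0.729, 0.309 to 0.449 and 0.293 to 0.466 between arrays numbered 1, 2 and 3, and at a median of -0.449 between different numbers, so the numbers pair the arrays. The reported calls come from the fit without this block, and the blocked value is given where it changes a member's call. The replicate number as a block, array weights, no trend, quantile normalization, centring, an offset of 16, the mean of probe sets, a background filter and leaving out arrays were the alternatives. Promoter windows and gene names came from RefSeq (GRCm38.p6). Plotting used Python 3.11.15 with matplotlib 3.10.9.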

Additional observations from a re-analysis of the deposited data

How the results depend on the processing

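The counts of members called higher in SDLN were 16 (Xcr1++) and 13 (Xcr1Cre+), and of members called lower 4 and 5. Leaving out 1 array at a time gave 13 to 16 and 12 to 13 higher, and 2 to 5 and 4 to 5 lower, the count of 2 coming without spleen Xcr1++ array 3. Without all arrays numbered 3, 8 members were called higher on the Xcr1++ arrays, 2 lower, and 7 of the synthesis genes higher in place of 13, and 3 were called lower on the Xcr1Cre+ arrays. Without all arrays numbered 2, 2 and 3 members were called lower. These fits keep 8 of the 12 arrays. The replicate block, the pairing of arrays by number, gave 18 and 16 higher and 5 and 6 lower, and changed no member's call other than those given with their blocked value beside the gene. Of the 20 and 18 members called, 10 and 12 kept their call in all 23 alternatives.

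Genes that turned direction were never called. Insig1 on the Xcr1Cre+ arrays was -0.034 (log2) with array weights, -0.040 with centring, -0.047 without the arrays numbered 1, and -0.024 to 0.073 leaving out 1 array. Ch25h there was -0.083 with array weights, -0.019 with quantile normalization, -0.096 without the arrays numbered 1, and -0.085 to 0.14 leaving out 1 array. Srebf1 on the Xcr1++ arrays was 0.023 with quantile normalization and -0.15 to 0.0076 leaving out 1 array. Srebf2 ran from -0.068 to 0.31 (Xcr1++) and from -0.11 to 0.28 (Xcr1Cre+) leaving out 1 array. Npc1 on the Xcr1++ arrays was -0.060 without the arrays numbered 1, -0.0096 without those numbered 2, and -0.060 to 0.12 leaving out 1 array. Fads2 on the Xcr1Cre+ arrays was -0.052 without the arrays numbered 3 and -0.084 to 0.21 leaving out 1 array. The cause was not tested.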
